A study of Oryzias latipes with 15 samples.

Results

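The 9 genes described here are known from spermatogonia and earlier germ cells: nanos3, pou5f3, dazl, lin28b, kita, kitb, id4, LY75 and gfra1b. They were chosen by gene symbol, and all 9 were found among 23028 genes. The tissue was testis of medaka, Oryzias latipes, an egg-laying laboratory fish, with 15 RNA libraries in 5 groups of 3. Potassium perchlorate was given at 0.01 mg/L (the low dose) or at 10 mg/L (the high dose), the high dose was also combined with vitamin C at 3 mg/L, vitamin C was given alone at that level, and control fish received neither. Perchlorate blocks iodide uptake by the thyroid, vitamin C is an antioxidant, and the series asks how perchlorate alters sperm formation and whether vitamin C changes that. Age, strain, length of exposure and the number of fish behind a replicate are not given in the labels.

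Spermatogonia are the dividing cells at the base of sperm formation, and the stem cells among them renew themselves under signals from the Sertoli cells around them. GDNF, which acts through a GFRA1 co-receptor, and KIT ligand, which acts through KIT receptors, are the best known of these signals in mouse. Much of the machinery that keeps a germ cell in its early state is not specific to males. In zebrafish, nanos3, dazl and pou5f3 mRNAs are also stored in the egg, so an ovary or an oocyte carries them too.

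Values are the deposited normalized counts, which compare libraries within a gene but not levels between genes, because they are not per length. Depth ran from 3.21 to 21.3 M reads per library. The low-dose libraries stood apart from the rest. A list of 12 oocyte genes (egg coat genes, bmp15, gdf9, figla, zar1 and others) summed to 40396 to 394702 normalized counts in them. The same sum was 1423 to 2217 at the high dose, 1977 to 2579 at the high dose with vitamin C, 2630 to 4003 with vitamin C alone and 481 to 644 in control. No gene of that list was at 0 in all 3 libraries of any group. Genes of spermatids and sperm, which mark the labelled tissue, summed to 4915 to 15155 in the low-dose libraries, against 18392 to 26654 in control. In whole tissue, a change in the share of a cell type and a change in RNA per cell cannot be told apart.

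nanos3 and pou5f3 were far above control at the low dose, and lin28b had its highest mean there, overlapping the high dose. kita, gfra1b and id4 had their highest levels at the high dose, apart from the next group. Of these, kita and gfra1b were lower with vitamin C added, gfra1b less firmly. kitb also had its highest mean at the high dose, but its libraries there overlapped control. For dazl and LY75 the order of groups showed no gap between neighbours.

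**Figure D1:**
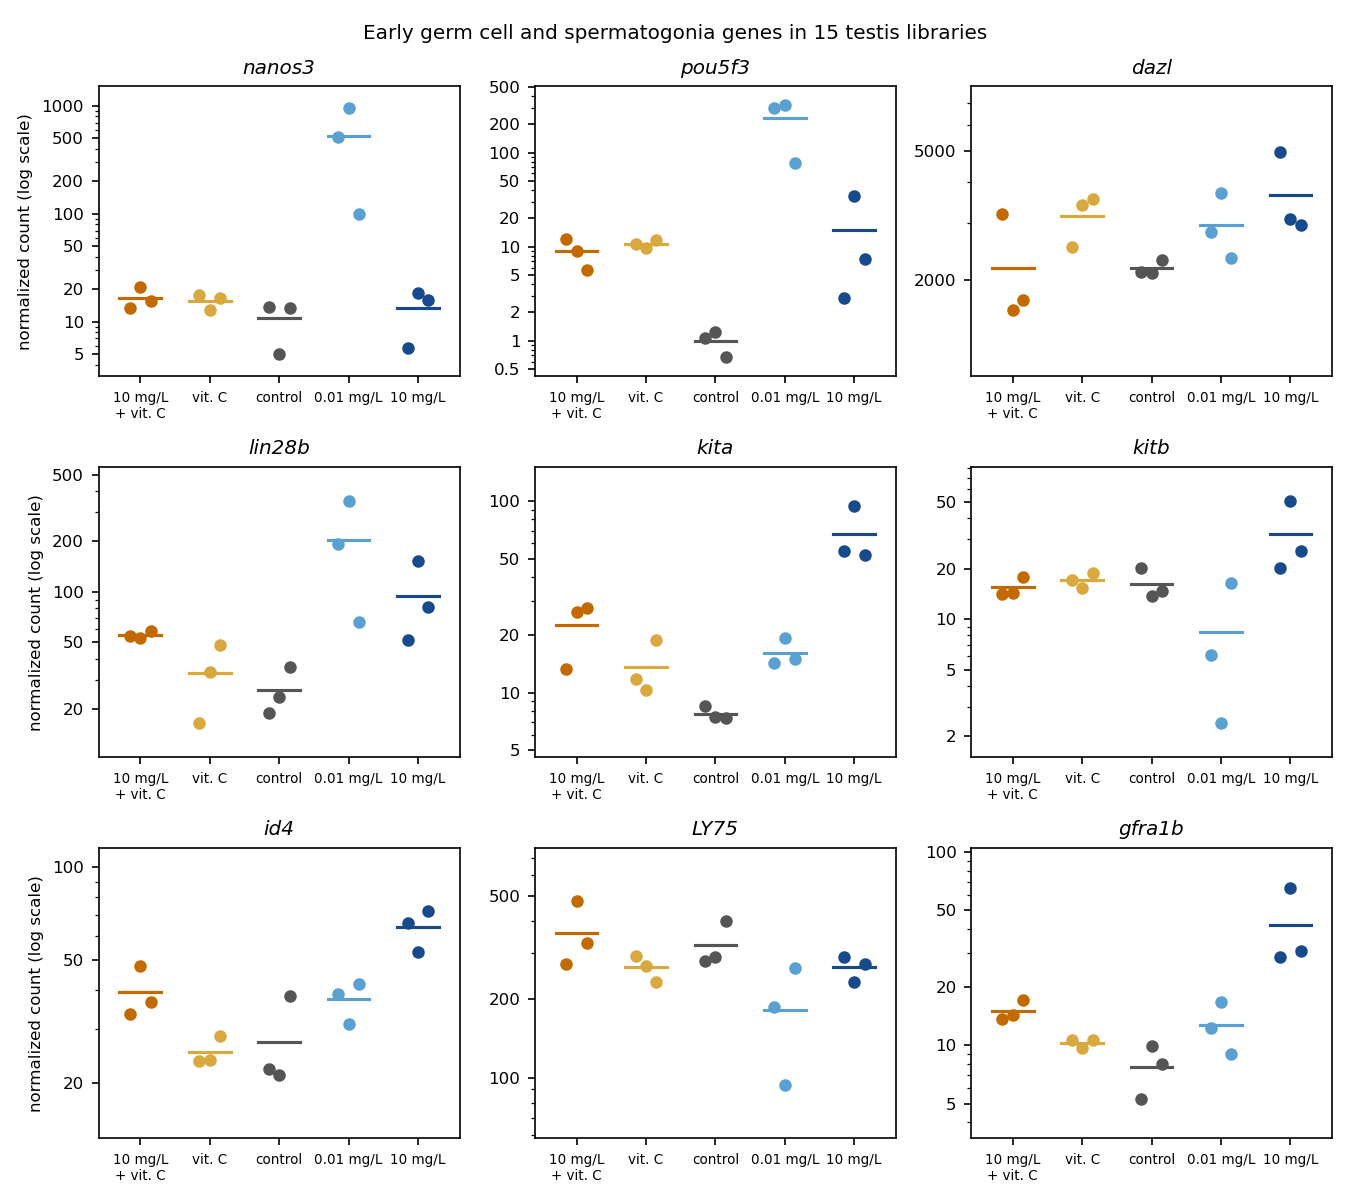
Normalized counts (log scale) of the 9 genes in each of 15 testis libraries, by group; points are libraries and bars are group means (n = 3). nanos3 and pou5f3 reach 956 and 319 in a low-dose library, while kita and gfra1b peak at 93.7 and 65.5 in a high-dose library.

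The low dose was compared with control first. By limma with Benjamini-Hochberg adjustment over 17778 genes, 3 of 8 members were higher, nanos3, lin28b and kita, and 1 was lower, LY75. A gene counts as higher or lower at an adjusted p under 0.05. The ninth member, pou5f3, passed the filter on low values through the low-dose libraries, since its mean over the other 12 was 8.91, below the minimum of 10. It had to differ here and is left out of these counts. Over all genes tested, 24.9% were higher and 22.9% lower in this comparison, so 4 called of 8 was close to the background of 47.8% in either direction. The median log2 fold change of the 8 members was 0.56, beside -0.01 over all genes tested. Libraries of the low dose lay above every control without overlap for 4 of the 8 and below for 1, where the background was 25.1% above and 26% below.

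nanos3 (ENSORLG00000012018) encodes an RNA-binding repressor of translation that keeps primordial germ cells alive in mouse. It had 518, 956 and 99.1 normalized counts in the low-dose libraries, against 13.8, 4.98 and 13.4 in control. All 3 low-dose libraries were above every control, but they were far from each other. The means were 524 ± 429 at the low dose and 10.7 ± 4.97 in control (SD, n = 3 each). On the log2(value + 1) scale the difference was 5.08 ± 0.65 (SE from the fit shared by all groups; limma, adjusted p = 5.01e-05).

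pou5f3 (ENSORLG00000010471) is the fish relative of mammalian Oct4, a transcription factor of pluripotent and early germ cells. It had 297, 319 and 78.1 normalized counts at the low dose, against 1.06, 1.25 and 0.67 in control, where each library held a single read. The groups were far apart, and replicate 3 was again the lowest of the low-dose libraries. The ratio of reads was 227, with an exact 95% interval of 76.8 to 1104 that covers counting error only. No test is given, because the low-dose libraries carried it past the filter.

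lin28b (ENSORLG00000012891) encodes an RNA-binding protein that blocks maturation of let-7 microRNAs. It had 194, 347 and 66.0 normalized counts at the low dose, against 19.1, 23.7 and 35.5 in control. The groups did not overlap, although replicate 3 of the low dose stood less than 2-fold above the highest control. The difference was 2.66 ± 0.53 (limma, adjusted p = 0.00125).

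These 3 genes followed the oocyte genes from library to library within the low dose. Relative to the control mean, nanos3 was 48.3, 89.2 and 9.24 times as high in low-dose replicates 1, 2 and 3. pou5f3 was 299, 321 and 78.7 times as high, and lin28b 7.45, 13.3 and 2.53 times. In the same libraries bmp15, an oocyte growth factor, was 770, 1216 and 155 times as high as in control. figla, a transcription factor of oocytes, was 41.4, 68.5 and 10.3 times as high, and gdf9, the partner of bmp15, 46.9, 90.1 and 11.0 times. The order was the same each time: replicate 2 highest, then 1, then 3. The egg coat gene zp3b and the maternal gene zar1 had that order as well, at 460, 643 and 99.8 times and at 317, 421 and 80.4 times. Of the oocyte list, 11 of 12 genes had it, of the members 5 of 9 (nanos3, pou5f3, lin28b, dazl and gfra1b), and of all 17778 genes tested 38.5%. Among the 4423 genes called higher at the low dose it was 90.2%, so the order is common to most of what was high there and does not single out these members. The scaling has this order too: a single read weighs most in replicate 2, then 1, then 3, so genes with even reads take it. Before scaling, nanos3 and lin28b had the order in their reads. pou5f3 (145, 133 and 52 reads in replicates 1, 2 and 3), dazl (1371, 1550 and 1554) and gfra1b (6, 7 and 6) did not.

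The excess over control can also be set against the summed excess of those 5 oocyte genes in the same library. For nanos3 it was 21.5, 26.9 and 17.2 per 1000 in low-dose replicates 1, 2 and 3. For pou5f3 it was 12.6, 9.05 and 15 per 1000, and for lin28b 7.14, 9.16 and 7.78 per 1000. Across these libraries the excess of each gene in units of oocyte RNA thus moved by a factor of 1.57 for nanos3, 1.66 for pou5f3 and 1.28 for lin28b. For the 5 oocyte genes, which make up that sum, the factors were 1.06 to 1.30, below those of nanos3 and pou5f3. The part of oocyte RNA in these 3 differences was not tested.

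**Figure D2:**
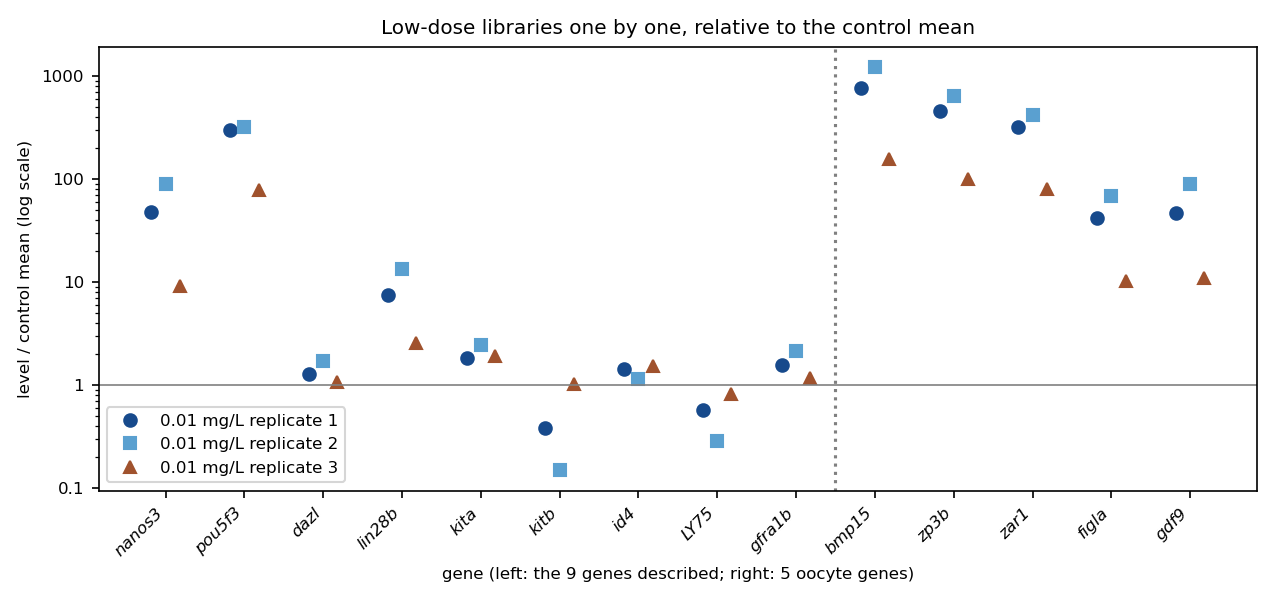
Level in each low-dose library divided by the control mean (log scale), for the 9 genes and, right of the dotted line, 5 oocyte genes; each symbol is 1 replicate. nanos3, pou5f3 and lin28b share the order of the oocyte genes (replicate 2, then 1, then 3). By contrast kitb, at 1 read, and LY75 are lowest in replicate 2.

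dazl (ENSORLG00000004848), a translation regulator of germ cells in both sexes, had 2806, 3714 and 2333 normalized counts at the low dose, against 2115, 2108 and 2308 in control. The lowest low-dose library stood just above the highest control, and the difference of 0.41 did not pass the test (limma, adjusted p = 0.206). Its excess over control per 1000 of the oocyte excess was 26.7, 43.8 and 30.3, a factor of 1.64.

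The KIT receptor genes did not follow the oocyte genes in this way, but their reads at the low dose were few. In replicates 1, 2 and 3 kita had 7, 8 and 10 reads and kitb 3, 1 and 11. kita (ENSORLG00000000569), a receptor for KIT ligand that zebrafish also need in pigment cells, had 14.3, 19.2 and 15 normalized counts at the low dose, against 8.48, 7.48 and 7.37 in control. The groups did not overlap, and the difference was 0.96 ± 0.38 (limma, adjusted p = 0.049). That call was lost in 15 of 18 alternative settings, with adjusted p between 0.0132 and 0.335, and leaving out any single library of either group ended it (adjusted p = 0.0532 to 0.143). The excess of kita per 1000 of the oocyte excess was 0.278, 0.325 and 1.41, a factor of 5.07. kitb (ENSORLG00000004401), the other medaka KIT receptor gene, had 6.14, 2.40 and 16.5 normalized counts at the low dose, against 20.1, 13.7 and 14.7 in control. It was lowest where oocyte RNA was highest, but on 1 read. Its difference of -1.18 ± 0.51 did not pass (limma, adjusted p = 0.068).

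LY75 (ENSORLG00000004197) encodes an endocytic receptor known from dendritic cells in mammals and used as a surface marker of early germ cells in trout. It had 186, 93.5 and 264 normalized counts at the low dose, against 280, 292 and 401 in control. All low-dose libraries lay below control, with replicate 3 close to it, and the difference was -0.94 ± 0.30 (limma, adjusted p = 0.0193). Without control replicate 3 the difference was -0.78 (adjusted p = 0.078), and without low-dose replicate 2 it was -0.53 (adjusted p = 0.0972). Genes of meiosis and of spermatids were also lower there: 10 of 12 and 9 of 11 tested genes fell, and none rose, beside 22.9% of all genes lower. Genes of Sertoli cells fell in 5 of 11 cases and rose in 1. The part of these cell types in the LY75 difference was not tested. gfra1b (ENSORLG00000005010), with 12.3, 16.8 and 9.01 normalized counts at the low dose against 5.30, 9.97 and 8.04 in control, overlapped control. On 6, 7 and 6 reads it had the order of the oocyte genes, and its excess per 1000 of theirs was 0.191, 0.257 and 0.241. Reads this even take that order from the scaling of each library. The gfra1b excess moved by a smaller factor than those of nanos3, pou5f3 and dazl, and a larger one than that of lin28b. A small factor thus does not by itself mark a gene that follows oocyte RNA. id4 (ENSORLG00000002567), with 38.9, 31.2 and 42.0 against 22.3, 21.2 and 38.2, overlapped as well. The gfra1b and id4 differences of 0.64 and 0.48 did not pass (limma, adjusted p = 0.201 and 0.189).

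Low-dose replicate 3 carried the least oocyte RNA. With it alone set against control, a setting chosen after seeing the data, nanos3 differed by 3.21, lin28b by 1.35, kita by 0.87 and LY75 by -0.27. These are values with no replicate check, since 1 library gives no spread of its own. This replicate still held 40396 normalized counts of the oocyte list.

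Outside the low dose, nanos3 stayed near control. It had 5.75, 18.6 and 15.9 normalized counts at the high dose, 13.3, 21 and 15.5 at the high dose with vitamin C, and 17.7, 12.9 and 16.5 with vitamin C alone. These 3 groups overlapped each other and control. pou5f3 stood above control in each of them. It had 2.87, 34.7 and 7.44 normalized counts at the high dose, where replicate 1 is a single read, 12.1, 8.99 and 5.72 at the high dose with vitamin C, and 10.6, 9.66 and 11.8 with vitamin C alone. The read ratio to control was 23.5 at the high dose (exact 95% interval 7.68 to 117) and 6.70 without replicate 2 (1.61 to 39.2), which held 54 of the 62 reads. It was 10.5 with vitamin C added (3.39 to 52.3) and 11.3 with vitamin C alone (3.63 to 57.1). These ratios share the same 3 control reads, and their intervals cover counting error only. In each of those groups 6 of 12 oocyte genes were called higher than control. Over all genes, 18.3% were called higher at the high dose, 2.36% with vitamin C added to it and 0.304% with vitamin C alone. Within the high dose the oocyte list summed to 2155, 2217 and 1423 normalized counts in replicates 1, 2 and 3, an order unlike that of pou5f3. The part of oocyte RNA in the pou5f3 values was not tested.

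**Figure D3:**
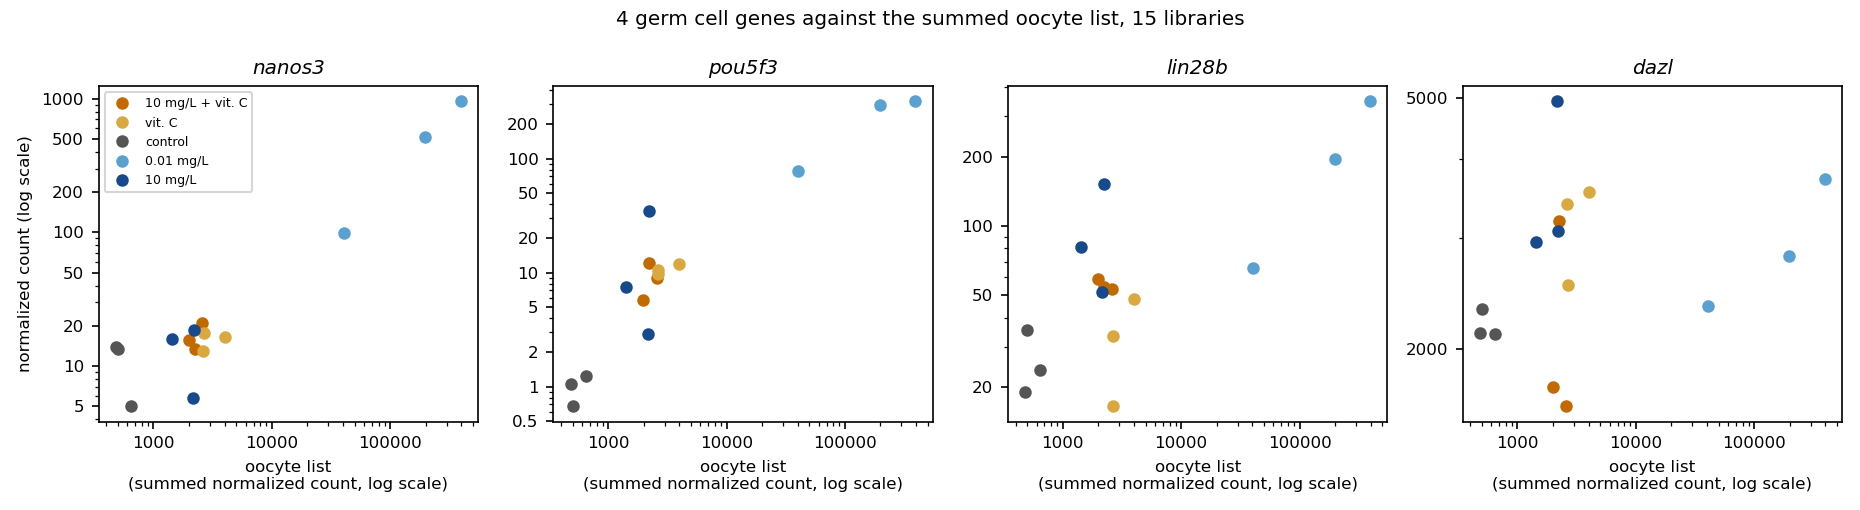
Normalized count of 4 genes (vertical, log scale) against the summed oocyte list (horizontal, log scale) in 15 libraries, coloured by group. The 3 low-dose libraries, at 40396 to 394702 on the horizontal axis, are the highest for nanos3 and pou5f3, while dazl is highest in a high-dose library.

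The high dose was then compared with control. By limma, 6 of the 9 members were higher and none lower, beside 18.3% higher and 20.5% lower over all genes tested (38.7% in either direction). The median log2 fold change of the members was 1.24, beside 0.05 over all genes tested. Without pou5f3, which entered the fit through the low dose, 5 of 8 were higher and the median was 1.05. These same 6 members had every high-dose library above every control, and the background for that was 28.6%, with 28.8% below. The balance of all calls depended on scaling: 3248 genes were higher and 3638 lower as deposited, and 5557 higher and 1932 lower when libraries were scaled on genes that averaged 500 or more in control. Under that scaling, chosen after seeing the data, 6 members were again higher. The balance of calls also depended on expression level. Among genes with a mean of at least 50, 1336 were higher and 3379 lower, with a median of -0.12. kita, id4 and gfra1b averaged 25.4, 38.6 and 17.5 over all libraries, so 18.3% may be too low a background for them.

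kita had the largest fitted difference. Its levels were 54.6, 93.7 and 52.1 normalized counts at the high dose, against 8.48, 7.48 and 7.37 in control. The lowest high-dose library was far above the highest control. Means were 66.8 ± 23.4 and 7.78 ± 0.614 (SD, n = 3 each), and the difference was 2.90 ± 0.38 (limma, adjusted p = 0.000105). It was called in all 17 alternative settings.

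gfra1b, the GDNF co-receptor gene, had 28.7, 65.5 and 30.8 normalized counts at the high dose, against 5.30, 9.97 and 8.04 in control. The groups were well apart, and the difference was 2.22 ± 0.40 (limma, adjusted p = 0.000722). It too was called in all 17 settings. id4, an inhibitor of basic helix-loop-helix transcription factors that marks spermatogonial stem cells in mouse, had 66.1, 53.3 and 72.3 normalized counts at the high dose, against 22.3, 21.2 and 38.2 in control. Its difference was 1.24 ± 0.30 (limma, adjusted p = 0.00429), and with quantile normalization it was 0.64 (adjusted p = 0.137).

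lin28b, pou5f3 and dazl passed less firmly. lin28b had 51.7, 152 and 80.8 normalized counts at the high dose, against 19.1, 23.7 and 35.5 in control, a difference of 1.73 ± 0.53 (limma, adjusted p = 0.0174). Without high-dose replicate 2 it was 1.32 (adjusted p = 0.099), and it also missed the threshold without control replicate 1 (1.54, adjusted p = 0.0719) or control replicate 2 (1.68, adjusted p = 0.0564). pou5f3 differed by 2.41 ± 0.68 (limma, adjusted p = 0.0111). Without high-dose replicate 2, which held 54 of its 62 high-dose reads, the difference was 1.53 (adjusted p = 0.0643). dazl had 4941, 3074 and 2953 normalized counts at the high dose, against 2115, 2108 and 2308 in control, a difference of 0.71 ± 0.26 (limma, adjusted p = 0.044). Its call was lost when any control replicate was left out (adjusted p = 0.111, 0.114 and 0.0675 without replicates 1, 2 and 3), or high-dose replicate 1 (0.47, adjusted p = 0.19) or 2 (0.81, adjusted p = 0.0589).

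The other members did not pass. kitb had 20.1, 50.7 and 25.5 normalized counts at the high dose, against 20.1, 13.7 and 14.7 in control, a difference of 0.85 ± 0.51 (limma, adjusted p = 0.196). LY75 had 290, 234 and 273 normalized counts at the high dose, against 280, 292 and 401 in control, and nanos3 differed by 0.27. High-dose replicate 2 held the highest high-dose level of nanos3, pou5f3, lin28b, kita, kitb and gfra1b, and the lowest of id4 and LY75.

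**Figure D4:**
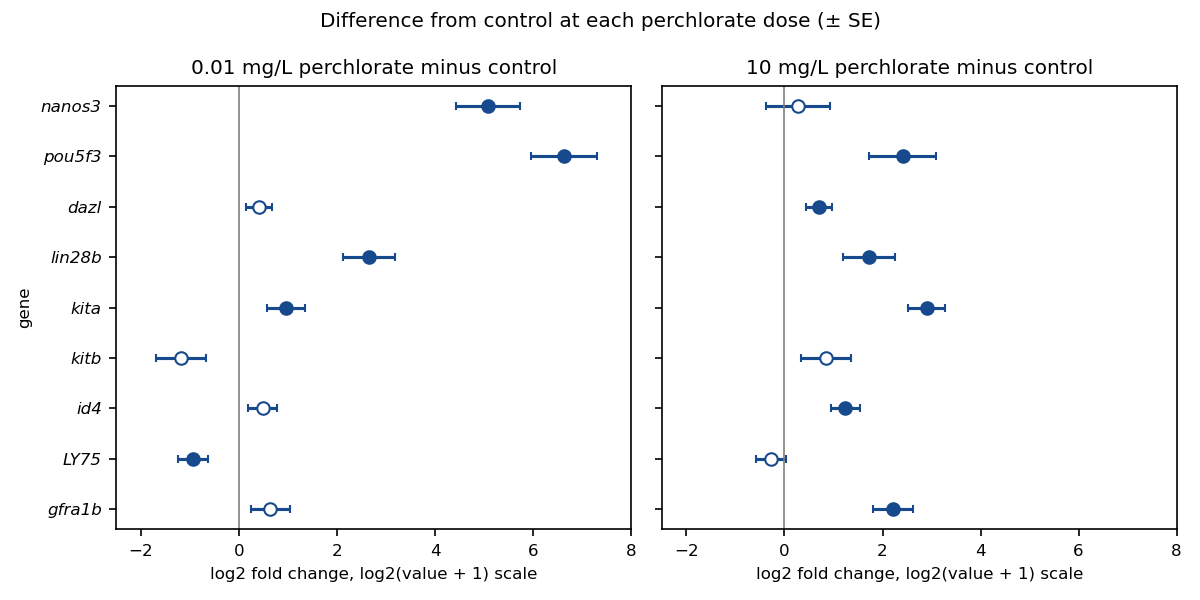
Log2 fold change from control on the log2(value + 1) scale at the low dose (left) and the high dose (right), with SE bars; filled points passed an adjusted p of 0.05 in limma and open points did not. nanos3 stands at 5.08 at the low dose and kita at 2.90 at the high dose. pou5f3 was tested only because of its low-dose level, so its filled point in the left panel is not a test result. Both panels share the same control libraries.

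Some markers of other cells that a dissected testis can hold were higher at the high dose than in control. Over all genes, 18.3% were higher and 20.5% lower there. Of 7 tested pigment cell genes 4 rose, among them tyrp1b (2.19 ± 0.36), a pigment enzyme, and none fell. Of 9 immune genes 5 rose, among them rag1 (3.24 ± 0.73) of developing lymphocytes, and none fell. rag1 averaged 60.6 ± 62.3 normalized counts at the high dose, a wide spread, and 3.49 ± 2.41 in control (SD, n = 3 each). Whether genes of these lists passed the filter on low values through the high dose was not checked. Of 5 red blood cell genes 2 rose, slc4a1a (2.59 ± 0.47) and epor (1.09 ± 0.40). The pigment list summed to 299, 485 and 320 normalized counts at the high dose, against 181 to 235 in control. The red blood cell list summed to 557, 814 and 418, against 261 to 308. The immune list summed to 3511, 3128 and 4771, against 2139 to 2534. The ovarian follicle list, with 2 of 4 tested genes higher and none lower, summed to 101, 340 and 152, against 42.4 to 52.3. All of these sums lay above control without overlap. With vitamin C alone the pigment (278 to 343), red blood cell (321 to 414) and follicle (58.0 to 87.3) sums also lay above control without overlap. The immune sum (2362 to 3002) overlapped control there, and kita had 10.3 to 18.9 normalized counts. High-dose replicate 2, the highest of its group for kita and gfra1b, was also highest for the pigment, red blood cell and follicle lists but lowest for the immune list. The immune sum was mostly 1 gene, cd74a, which averaged 3287 ± 849 at the high dose and 2141 ± 226 in control (SD, n = 3 each). No gene of these lists was at 0 in all 3 high-dose libraries, and 1 pigment gene was at 0 in all 3 controls. Genes of meiosis fell in 6 of 12 cases. Sertoli cell genes fell in 2 of 11 cases and rose in 1, and spermatid and sperm genes fell in 1 of 11. The Sertoli cell list summed to 15996 to 18799 at the high dose, against 23779 to 25286 in control. The spermatid and sperm list summed to 13117 to 17036, against 18392 to 26654. Both sums lay below control without overlap. Much of the Sertoli cell sum was an amh entry, which averaged 4420 ± 1168 at the high dose and 12243 ± 2388 in control. Another large part, gsdf, averaged 9505 ± 418 and 8055 ± 1105 (SD, n = 3 each). The median log2 fold change of the 11 tested Sertoli cell genes was -0.06, beside 0.05 over all genes. The Sertoli cell sum thus says little about the other genes of its list. The part of these cells in the values of kita, gfra1b and id4 was not tested.

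**Figure D5:**
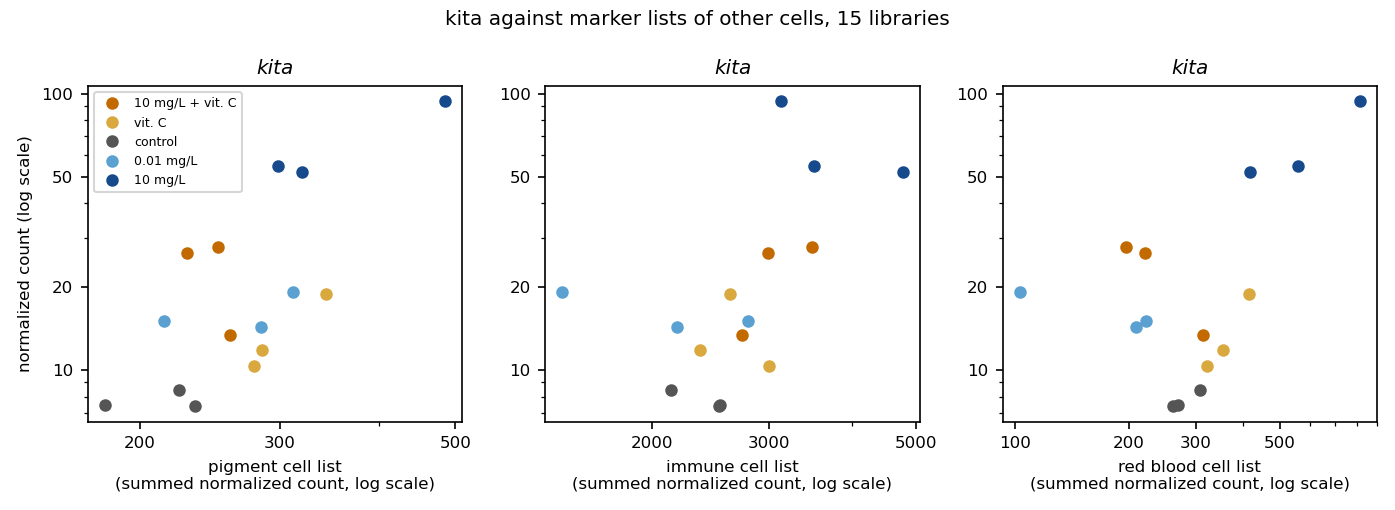
Normalized count of kita (vertical, log scale) against the summed pigment, immune and red blood cell lists (horizontal, log scale) in 15 libraries, coloured by group. The high-dose libraries, at 52.1 to 93.7 for kita, are above every other library, and high-dose replicate 2 has the highest pigment (485) and red blood cell (814) sums.

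Between the doses, the high against the low dose, 4 of 8 members were higher and 1 lower by limma, again without pou5f3, beside 22.4% higher and 26.1% lower over all genes tested (48.4% in either direction). kita differed by 1.94 ± 0.38 (adjusted p = 0.00117), kitb by 2.03 ± 0.51 (0.00515), gfra1b by 1.58 ± 0.40 (0.00569) and id4 by 0.76 ± 0.30 (0.0451). nanos3 was lower at the high dose by -4.81 ± 0.65 (adjusted p = 8.07e-05). These 5 separated the libraries of the doses without overlap, 4 above and 1 below, where the background was 20.5% above and 22.4% below. Against low-dose replicate 3 alone, values with no spread of their own, kita differed by 2.03, gfra1b by 1.99, kitb by 0.81, id4 by 0.58 and nanos3 by -2.93. The id4 call was lost without replicate 1 or 3 of the high dose or replicate 1 or 2 of the low dose (0.64 to 0.79, adjusted p = 0.077 to 0.143). dazl, lin28b and LY75 did not pass, at 0.29, -0.93 and 0.67.

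With vitamin C added to the high dose, kita and gfra1b were lower than at the high dose alone. By limma, 2 of the 9 members were lower and none higher, beside 2.64% lower and 7.74% higher over all genes tested (10.4% in either direction). kita had 13.3, 26.4 and 27.8 normalized counts with vitamin C, against 54.6, 93.7 and 52.1 at the high dose alone. The groups did not overlap, and the difference was -1.54 ± 0.38 (adjusted p = 0.0195). gfra1b had 13.7, 14.4 and 17.1 normalized counts with vitamin C, against 28.7, 65.5 and 30.8 at the high dose alone, a difference of -1.31 ± 0.40 (adjusted p = 0.0491).

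Neither difference held under every setting: the kita call was lost in 2 of 17 alternative settings and the gfra1b call in 10 of 17. Without high-dose replicate 2, kita differed by -1.28 (limma, adjusted p = 0.09) and gfra1b by -0.94 (adjusted p = 0.185). Without replicate 1 of the high dose with vitamin C, kita differed by -1.22 (adjusted p = 0.0755) and gfra1b by -1.25 (adjusted p = 0.112). gfra1b was also lost without replicate 3 of the high dose and without replicate 2 or 3 of the group with vitamin C (adjusted p = 0.0606, 0.146 and 0.122). Same-numbered libraries of these groups deviated together, and with a replicate block kita kept its call (adjusted p = 0.0266) and gfra1b lost it (adjusted p = 0.0542). In a blocked limma fit of only these groups 3 members were lower, kita, gfra1b and dazl (adjusted p = 0.00567, 0.0293 and 0.00135). That fit also called more of all 17778 genes, 2847 higher and 2602 lower, against 1376 and 469 in the main fit.

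Lower levels with vitamin C were also seen, short of the threshold, for other members. id4 had 33.5, 48.0 and 36.7 normalized counts with vitamin C, against 66.1, 53.3 and 72.3 at the high dose alone (-0.69 ± 0.30, limma, adjusted p = 0.144). kitb had 14.1, 14.4 and 18 with vitamin C, against 20.1, 50.7 and 25.5 (-0.90 ± 0.51, adjusted p = 0.256). Neither overlapped, and with kita and gfra1b that made 4 members below without overlap, where the background was 19.1%. dazl had 3193, 1618 and 1739 with vitamin C, against 4941, 3074 and 2953 (-0.77 ± 0.26, adjusted p = 0.0717). lin28b, with 54.5, 53.4 and 58.8 against 51.7, 152 and 80.8, overlapped, as did LY75, with 274, 477 and 330 against 290, 234 and 273. Of the other cells' lists, the red blood cell genes had 1 of 5 and the pigment and immune genes 0 of 7 and 0 of 9 called in this comparison by limma. The pigment sum was 229 to 260 with vitamin C, against 299 to 485 at the high dose alone, and the red blood cell sum 196 to 313, against 418 to 814. Their part in the lower kita and gfra1b was not tested.

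Against control, the high dose with vitamin C had 0 of 9 members called by limma, with 3 at an unadjusted p under 0.05, beside 2.36% of all genes higher, 1.26% lower and 3.62% in either direction. edgeR called 1 member, beside 590 genes higher and 200 lower over all genes. DESeq2 called 2, beside 1018 genes higher and 915 lower. kita was nearest, at 1.36 ± 0.38 (limma, adjusted p = 0.0582), with 13.3, 26.4 and 27.8 normalized counts against 8.48, 7.48 and 7.37 in control. pou5f3 followed at 2.28 ± 0.68 (adjusted p = 0.0694). Each of kita, pou5f3, lin28b and gfra1b had its 3 libraries above control without overlap, and none below it, where the background was 17.6% above and 22% below.

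Vitamin C alone, against control, had 0 of 9 members called by limma, by edgeR and by DESeq2. In limma 1 member, pou5f3, had an unadjusted p under 0.05 (2.56 ± 0.68, adjusted p = 0.156). Over all genes limma called 0.304% higher, 0.101% lower and 0.405% in either direction. edgeR called 48 genes higher and 18 lower, and DESeq2 134 and 123. kita had 11.8, 10.3 and 18.9 normalized counts with vitamin C alone, against 8.48, 7.48 and 7.37 in control, and dazl 2523, 3396 and 3544, against 2115, 2108 and 2308. With pou5f3 they were the 3 members whose libraries did not overlap control, where the background was 14.6%. The high dose with vitamin C, against vitamin C alone, likewise had 0 members called by limma, edgeR and DESeq2. In limma 1 member, dazl, had an unadjusted p under 0.05. Over all genes limma called 0.27%, edgeR 68 higher and 0 lower, and DESeq2 170 higher and 10 lower.

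Whether the effect of the high dose differed with vitamin C was tested by the interaction term, in which 2 members were lower and none higher by limma, beside 2.47% lower, 5.6% higher and 8.08% in either direction over all genes. For kita the high dose gave 0.66 within vitamin C and 2.90 without it, an interaction of -2.24 ± 0.54 (adjusted p = 0.0252). For dazl it gave -0.59 within vitamin C and 0.71 without it, an interaction of -1.29 ± 0.37 (adjusted p = 0.0452). gfra1b (-1.71 ± 0.57, adjusted p = 0.071) and pou5f3 (-2.70 ± 0.96, adjusted p = 0.0877) did not pass. The kita call was lost without control replicate 1 or 2, high-dose replicate 2, any replicate of the high dose with vitamin C, or replicate 2 or 3 of vitamin C alone (-2.42 to -1.92, adjusted p = 0.05 to 0.0895). The dazl call was lost without any library of control, high-dose replicate 1 or 2, or replicate 2 or 3 of either vitamin C group (-1.40 to -1.06, adjusted p = 0.0527 to 0.131). All of these comparisons share libraries with each other.

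Within each gene, the order of the 5 group means can be read with its gaps. For nanos3 and pou5f3 the low dose was highest and separate from the next group. For kita, gfra1b and id4 the high dose was highest and separate from the next group, the high dose with vitamin C. For kitb the high dose was highest and separate from vitamin C alone, which came next, but the high dose overlapped control. Below these, neighbouring groups overlapped for nanos3, gfra1b, kitb and id4, whereas control was lowest and separate for pou5f3 and kita. For lin28b the only gap between neighbours lay between the high dose with vitamin C (55.6 ± 2.86) and vitamin C alone (32.8 ± 15.9; SD, n = 3 each). For dazl and LY75 every pair of neighbours overlapped.

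Genes that work with the members were counted in lists by pathway. KIT ligand itself, kitlga, lay below the filter and was looked at after its values were seen. It had 11.5, 22.5 and 11.7 normalized counts at the high dose, 1.21, 7.79 and 6.53 at the high dose with vitamin C, and 2.12, 1.25 and 1.3 in control. The read ratio to control was 11.4 at the high dose (exact 95% interval 4.56 to 36.6) and 2.90 with vitamin C added (1.08 to 9.72), with intervals that cover counting error only, while replicates differed beyond it. Without high-dose replicate 2 the high-dose ratio was 7.54 (2.60 to 26.5). Of the signalling genes downstream of KIT, 0 of 9 rose and 2 fell at the high dose, a share near that over all genes (18.3% higher and 20.5% lower). They were ptpn11a (-1.34 ± 0.21), a phosphatase that relays receptor signals, and sos1 (-0.94 ± 0.21), an activator of RAS. Both were higher with vitamin C added, by 0.99 ± 0.21 and 0.92 ± 0.21 (limma, adjusted p = 0.00918 and 0.0117). At the low dose 1 of 9 rose, the kinase gene AKT1 (1.3 ± 0.29), and 5 fell, among them cbl (-1.52 ± 0.32), which marks receptors for removal, beside 24.9% higher and 22.9% lower over all genes. Of the GDNF pathway, 2 genes were tested, GFRA2 and the receptor ret, and neither was called at either dose.

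Around lin28b, 1 of 7 genes rose and 4 fell at each dose. For this and the following lists, the background at the low dose was 24.9% rising and 22.9% falling. Its high-dose values were 18.3% and 20.5%. dicer1, which cuts microRNA precursors, fell at both, by -1.73 ± 0.31 at the low dose and -1.21 ± 0.31 at the high dose. igf2bp1, an mRNA-binding protein gene repressed by let-7 in mammals, fell at the high dose (-1.41 ± 0.25). Of 17 RNA-binding partners of nanos and dazl, 3 rose and 6 fell at the low dose, led by rbpms2b (2.66 ± 0.41), known from zebrafish oocytes, cpeb1b (1.94 ± 0.31), a regulator of stored mRNA, and cnot1 (-1.53 ± 0.26), the scaffold of the deadenylase that NANOS proteins recruit. At the high dose none of the 17 rose and 6 fell, cnot1 by -2.0 ± 0.26, tdrd1 by -0.91 ± 0.15 and pabpc1a by -0.97 ± 0.22 among them. Of 7 genes for Id proteins and their partners, 3 rose and 2 fell at the low dose, with id1 at 2.57 ± 0.40. At the high dose 1 rose, id3 (1.51 ± 0.27), and 2 fell, the partner genes tcf3a (-1.08 ± 0.27) and tcf3b (-1.12 ± 0.17).

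Genes of pluripotency and further genes of spermatogonia were also counted. Of 13 pluripotency genes 7 rose and 1 fell at the low dose, with sox19b at 4.03 ± 0.45, and 6 rose and 1 fell at the high dose, with tfap2c at 3.03 ± 0.54. sall4, a transcription factor gene of early germ cells that is on both lists, rose at both, by 2.29 ± 0.41 and 2.23 ± 0.41. Their median log2 fold change was 1.51 at the low dose and 1.53 at the high dose, beside -0.01 and 0.05 over all genes. Of 17 further spermatogonia genes 8 rose and 2 fell at the low dose, led by ccnd1 (4.72 ± 0.53), a cyclin, and epcam (3.30 ± 0.39), an adhesion gene. At the high dose 5 rose and 4 fell, near the shares over all genes, with ccnd2a (1.5 ± 0.21) and pax7a (3.61 ± 0.74) among the higher. Their medians were 0.51 and 0.35. Some means were lower at the high dose than in control. etv5a averaged 413 ± 47.3 against 666 ± 50.7 and cd9b 2099 ± 264 against 3441 ± 636. itgb1a averaged 61.9 ± 9.01 against 146 ± 22.5 (SD, n = 3 each). pax7a averaged 32.0 ± 26.3 normalized counts at the high dose and 1.15 ± 1.07 in control (SD, n = 3 each). Whether pax7a and other genes of these lists passed the filter through the high dose was not checked. A gene that did so had to be high there, so the high-dose counts of rising genes are a description only. The spermatogonia list summed to 13041 to 14318 normalized counts at the high dose, against 17516 to 20189 in control. ddx4 alone averaged 8355 ± 555 of this at the high dose and 12819 ± 891 in control (SD, n = 3 each). The sum thus says little about the other genes of the list. With vitamin C added to the high dose, etv5a (0.70 ± 0.16), a transcription factor gene downstream of GDNF in mouse, and the germ cell helicase gene ddx4 (0.63 ± 0.18) were higher, and cd9a (-1.04 ± 0.30), a membrane protein gene, was lower.

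The genes most like each member were found by Pearson correlation of log2(value + 1), as a description only, among named genes whose overall mean was 50 or more. Over 15 libraries, which share the large low-dose difference, the nearest was slc2a8 for nanos3 (r = 0.982), serpina7 for pou5f3 (0.963), slc51a for lin28b (0.965) and sec11a for dazl (0.962). It was fli1 for kita (0.946), hcls1 for kitb (0.961), pla2g10 for id4 (0.957), NKTR for LY75 (0.954) and FOXO4 for gfra1b (0.951). Over the 12 libraries without the low dose, the nearest was plp1a for nanos3 (0.929), eloal for pou5f3 (0.922), KCNIP2 for lin28b (0.959) and naa50 for dazl (0.990). It was OAF for kita (0.975), gba3 for kitb (0.951), pla2g10 again for id4 (0.966), lipea for LY75 (0.898) and elf1 for gfra1b (0.972). The Sertoli cell junction gene cldn11a was second to LY75 both times (0.953 and 0.894).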

How the data were processed

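The deposited table holds, per gene and library, a signal that is a normalized read count made by the authors; fastp 0.23.2, STAR 2.7.7a and DESeq2 1.34.0 are named per the submitters' processing notes. No source used here gives the genome build, the counter or the strand setting, so no coordinates are printed, and genes with near-identical copies or overlapping partners are uncertain. Every value was a whole multiple of 1 step per library: whole reads were recovered for 100% of 345420 values within 0.001. These gave the depths of 3.21 to 21.3 M reads. Replicates differed beyond sampling noise (chi-square per degree of freedom 3.42 to 142). The labels call replicates biological without saying whether each was a separate fish, so p-values measure only the spread between these samples.

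Genes averaging 10 or more, 17778 in all, were tested on log2(value + 1) with limma 3.58.1 (R 4.3.3, variance trended on the mean) in 1 fit over all 15 libraries and 8 contrasts. Fold changes on this scale understate changes of low genes. The test was checked on simulated data. Alternatives were edgeR 4.0.16 and DESeq2 1.42.0 on the recovered reads, other pseudocounts, filters, normalizations, library weights, a replicate block and leaving out each replicate. edgeR called 4750 genes higher and 3299 lower at the low dose against control, and 3845 higher and 3441 lower at the high dose.

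The labels do not say that replicate numbers pair samples. For the high dose with vitamin C and the high dose alone, same-numbered libraries correlated in their deviations at 0.361, 0.198 and 0.124, all above the bound of 0.1, and blocked values are given there. In no other comparison did all 3 pairs exceed it. The members and lists were chosen with earlier results of these data known. Named besides the members were 5 oocyte genes, genes with the highest correlation to each member and, from each list, up to 3 called genes with the smallest adjusted p; the text names part of these, picked after their values were seen.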

Additional observations from a re-analysis of the deposited data

Results flagged for a closer look

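The effect of the high dose differed with and without vitamin C for 2 members, by the interaction term in limma. For kita it was -2.24 on the log2(value + 1) scale, and for dazl -1.29. The kita call was lost in 8 of 23 alternative settings and the dazl call in 12 of 24, most of them settings that left out 1 library. dazl was lower in replicates 2 and 3 of the high dose with vitamin C (1618 and 1739 normalized counts) than in any library of vitamin C alone or of control.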

How the results depend on the processing

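Of 1336 member values recomputed, 1189 kept their side of the threshold, 84 lost a call, 63 gained one and 0 reversed a called direction; 36 values that were not called changed sign. nanos3 at the low dose and kita and gfra1b at the high dose were called under all their alternatives. Counts of members called include pou5f3, which had to differ at the low dose and between doses. They moved by over 1.5 times as follows. For the high dose with vitamin C against the high dose, main count 2, it was 1 with a pseudocount of 0.5, 1 without a filter and 1 with the replicate block. The interaction, also 2, gave 1 without a filter and 1 with the replicate block. With a mean of at least 50, which leaves out kita, kitb, id4 and gfra1b, the count was 3 at the high dose against control, 2 between doses, 0 with vitamin C added and 1 in the interaction. With only the groups compared, higher and lower calls over all genes were 1905 and 1345 at the low dose and 895 and 1673 between doses. They were 2050 and 1092 with vitamin C added and 1735 and 1969 for the high dose with vitamin C against control. For vitamin C alone they were 394 and 277, and in the interaction 2838 and 2217. The member count was then 3 at the low dose, 3 between doses and 1 with vitamin C added. It was 3 for the high dose with vitamin C against control, 1 for vitamin C alone and 4 in the interaction. With the replicate block in those groups, higher and lower calls over all genes were 450 and 8 at the low dose and 1157 and 2218 between doses. They were 2128 and 2146 for the high dose with vitamin C against control. For vitamin C alone they were 1151 and 1419, and in the interaction 2804 and 2315. The member count in these 5 comparisons was 2, 3, 3, 2 and 4, in that order. Library quality weights ran from 0.112 to 6.67, with 4.86 for low-dose replicate 1 against 0.145 and 0.112 for replicates 2 and 3. They called more of all 17778 genes. Higher and lower calls were 6783 and 6409 at the low dose and 3447 and 3272 with vitamin C added. They were 4402 and 5472 for the high dose with vitamin C against control and 3016 and 3641 for vitamin C alone. For the high dose within vitamin C they were 3878 and 4423, and in the interaction 4415 and 4440. The member count with weights was 9 at the low dose, 5 with vitamin C added and 6 for the high dose with vitamin C against control. It was 2 for vitamin C alone, 6 for the high dose within vitamin C and 7 in the interaction. Over all genes DESeq2 called 1993 higher and 1732 lower with vitamin C added, and 1791 and 1362 in the interaction. Its member count was 4 in each. For the high dose with vitamin C against control the member count was 1 with edgeR and 2 with DESeq2. With low-dose replicate 3 alone, chosen after seeing the data, no count is given, since 1 library gives no spread of its own. Leaving out each replicate gave 3 to 5 at the low dose, 3 to 6 at the high dose and 5 to 8 between doses. It gave 0 to 2 with vitamin C added, 0 to 1 for the high dose with vitamin C against control and 0 to 2 in the interaction. Over all genes, the fewest to the most higher and lower calls were 3137 and 2980 to 5667 and 5254 at the low dose. They were 2155 and 2517 to 3330 and 3395 at the high dose, and 2551 and 3403 to 5688 and 5878 between doses. With vitamin C added they were 391 and 168 to 1115 and 498. For the high dose with vitamin C against control they were 44 and 1 to 609 and 528, and in the interaction 97 and 35 to 1263 and 562. The causes were not tested where none is named. The replicate block over all 15 libraries changed the calls of kita at the low dose and dazl at the high dose (adjusted p = 0.0544 and 0.0507) besides those given with the results. Quantile normalization moved the median of all genes to -0.19 at the low dose, beside -0.01 as deposited, with 3504 genes higher and 4908 lower, against 4423 and 4076 as deposited. Scaling on genes that averaged 500 or more in control, also chosen after seeing the data, moved it to 0.16 there, with 5403 higher and 3026 lower, and to 0.40 at the high dose. The same scaling gave 5277 higher and 3580 lower between doses (3976 and 4636 as deposited), 857 and 867 with vitamin C added (1376 and 469), 484 and 73 for the high dose with vitamin C against control (419 and 224) and 560 and 756 in the interaction (996 and 440); quantile normalization gave 235 and 70 for the high dose with vitamin C against control. High-dose replicate 1, at 3.21 M reads, is the least precise library: 1 read is 2.87 normalized counts there, which limits pou5f3, kita, kitb and gfra1b.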
